A study of Arabidopsis thaliana with 8 samples.

Results

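The genes NLP9 (AT3G59580), AT1G34060, AT5G25240 and OPR2 (AT1G76690) of Arabidopsis thaliana had transcripts that responded more strongly to drought in wild-type plants than in plants overexpressing VaWRKY14. These 4 genes, out of 24132 listed in at least 1 library and 19259 tested, were chosen by the fitted difference between the drought responses of the genotypes in these same libraries, so the values below describe that choice and carry no test of it. The overexpressing plants (OE) carry VaWRKY14, a WRKY transcription factor of grapevine, in the Columbia-0 accession, and the labels call the transgenic material a mixture and name no line. The promoter that drives the transgene is not given in the sources used here. The 4 groups, each of 2 libraries, were OE plants after 5 days without water, OE plants with normal watering, wild-type (WT) Columbia-0 plants after 5 days without water, and WT plants with normal watering. All plants were 3 weeks old, had been moved as seedlings from agar plates to peat pots, and were sequenced as whole plants per the labels. The stated tissue was only partly reflected in its markers: 4 of 8 root markers were listed in any library, with COBL9, EXPA7 and EXPA18 absent from every table, while the 4 rosette markers were among abundant transcripts. For the first library of droughted OE plants the genotype label gives VaWRKY15, against VaWRKY14 in its other labels. It was left among the OE plants, and each difference of responses of the 4 genes is also given without it.

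NLP9 belongs to the NIN-like proteins, RWP-RK transcription factors that bind nitrate-responsive promoter elements. In Arabidopsis the best known member, NLP7, accumulates in the nucleus when nitrate is supplied and switches on genes of nitrate uptake and reduction. OPR2 is a 12-oxophytodienoate reductase. Its relative OPR3 reduces the precursor of jasmonate in peroxisomes, whereas RefSeq notes that OPR2 has little activity on the natural precursor and is not expected to take part in jasmonate synthesis. RefSeq annotates AT1G34060 as a pyridoxal phosphate-dependent transferase and AT5G25240 as a stress induced protein, and gives neither a more exact role.

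In the TAIR10.1 annotation NLP9 lies at chr3:22009008-22012804 on the plus strand and its longest transcript has 7 exons. AT1G34060 lies at chr1:12396397-12398418 on the minus strand with 5 exons, and AT5G25240 is a gene of 1 exon at chr5:8746594-8747290 on the minus strand. OPR2 lies at chr1:28778622-28780483 on the plus strand with 4 exons. It overlaps its neighbour OPR1 by 216 bases on the same strand and AT1G76700 by 76 bases on the opposite strand. The 250 bases before the annotated start are shown for the genes whose window lies outside other genes, because the transgene encodes a WRKY factor, a class that binds the W-box. The windows are chr3:22008758-22009007, plus strand, for NLP9 and chr5:8747291-8747540, minus strand, for AT5G25240, both from RefSeq TAIR10.1.
NLP9: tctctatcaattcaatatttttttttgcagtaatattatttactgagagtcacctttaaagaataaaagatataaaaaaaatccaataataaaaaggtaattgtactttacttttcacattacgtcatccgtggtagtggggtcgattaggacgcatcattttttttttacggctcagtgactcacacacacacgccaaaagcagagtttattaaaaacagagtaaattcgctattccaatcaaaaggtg
AT5G25240: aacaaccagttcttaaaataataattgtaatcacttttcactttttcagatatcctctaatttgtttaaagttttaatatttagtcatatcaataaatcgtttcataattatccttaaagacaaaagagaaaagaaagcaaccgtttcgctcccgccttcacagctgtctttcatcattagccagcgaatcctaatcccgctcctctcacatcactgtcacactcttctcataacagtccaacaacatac
Neither window held the W-box core TTGAC, the abscisic acid response element core ACGTG or the dehydration response element core CCGAC on either strand, so no letters are in capitals. Among all 27443 windows of this length 44.9% held TTGAC, 22.9% held ACGTG and 12% held CCGAC. The window of AT1G34060 overlaps the neighbouring gene SAMC2, and that of OPR2 lies inside its neighbour OPR1. The first held none of these cores. The OPR2 window held TTGAC 47 bases and CCGAC 54 bases before the start, both on the opposite strand.

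In all 4 genes watered WT plants had the lowest level and droughted WT plants the highest, with both OE groups between them. Because these are bulk libraries, fewer cells of a type and less RNA per cell cannot be told apart. NLP9 had 5.59 and 6.37 CPM (counts scaled for the size and composition of each library) in droughted OE plants and 5.23 and 5.73 CPM in watered OE plants. It had 8.25 and 9.07 CPM in droughted WT plants and 1.66 and 2.31 CPM in watered WT plants. The OE groups overlapped, while every other pair of groups was apart. Here and below such separation is a description, because the share of all genes whose groups lie apart was not counted. The watered WT values are the only ones under 3 CPM. NLP9 averaged 5.98 ± 0.55 CPM in droughted OE and 5.48 ± 0.35 CPM in watered OE plants (SD, n = 2 each), a ratio of 1.09. The averages were 8.66 ± 0.58 CPM in droughted WT and 1.98 ± 0.46 CPM in watered WT plants (SD, n = 2 each), a ratio of 4.37. The lowest count of any of the 4 genes was 17 reads for NLP9 in the first watered WT library, with an exact 95% Poisson interval of 9.9 to 27.2 that covers counting error only.

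AT1G34060 differed from the others in that a rise under drought was also called in OE plants by edgeR. It had 51.5 and 37.6 CPM in droughted OE plants, against 14 and 11.98 CPM in watered OE plants. It had 75.2 and 88.3 CPM in droughted WT plants, against 8.10 and 6.61 CPM in watered WT plants. No groups overlapped. The ratio of droughted to watered means was 3.43 in OE plants and 11.1 in WT plants.

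AT5G25240 had 23.4 and 21.5 CPM in droughted OE plants and 28.7 and 24.0 CPM in watered OE plants. Its values were 30.9 and 29.5 CPM in droughted WT plants and 10.8 and 13.9 CPM in watered WT plants. The droughted OE libraries lay below the watered OE libraries without overlap, by a ratio of means of 0.85. The fitted response in OE plants was not called in edgeR, and its sign changed when libraries were scaled by their totals alone. In WT plants the ratio of droughted to watered means was 2.45. Watered OE plants were at 2.14 times the watered WT level.

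OPR2 had 17.9 and 12.3 CPM in droughted OE plants and 13.9 and 15.1 CPM in watered OE plants, and these groups overlapped. It had 25.8 and 32.9 CPM in droughted WT plants, against 11.1 and 8.96 CPM in watered WT plants. The ratio of droughted to watered means was 1.04 in OE plants and 2.92 in WT plants. Under drought the OE mean was 0.51 of the WT mean.

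**Figure D1:**
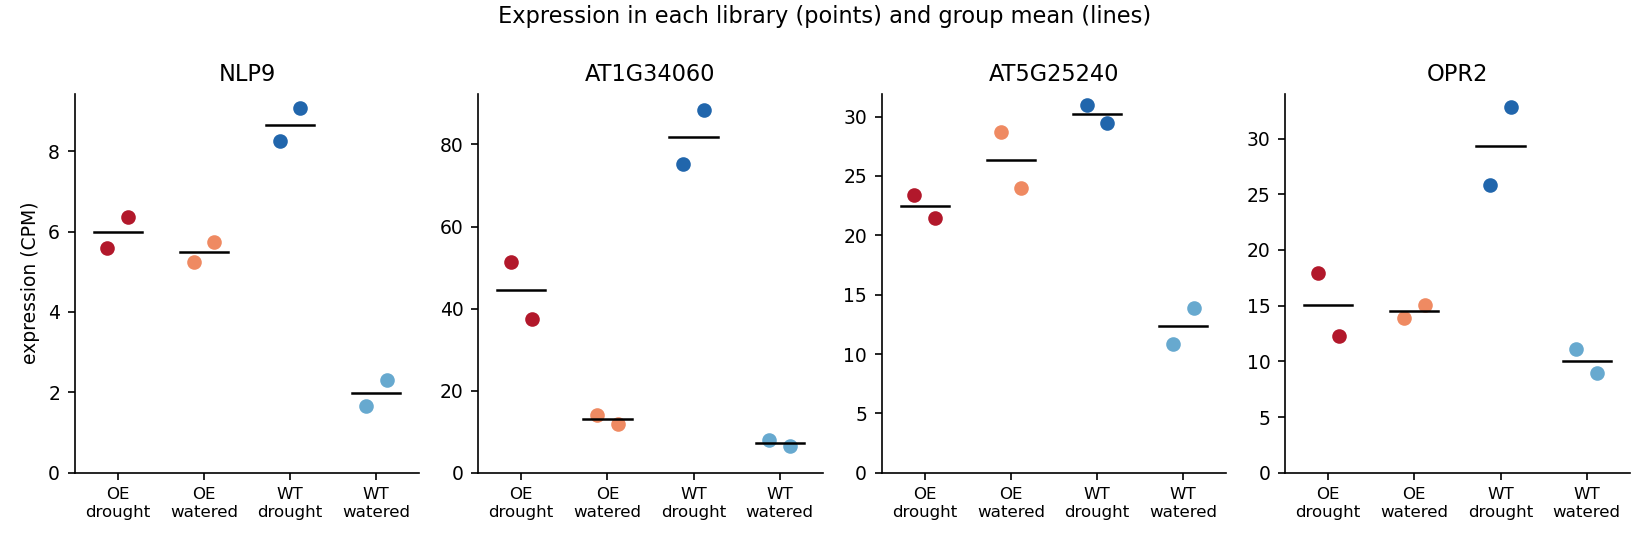
Expression of the 4 genes in CPM (vertical axes, from 0) in the 2 libraries of each group (points), with the group mean (lines). Watered WT plants are lowest and droughted WT plants highest in each panel, and the OE groups lie between them.

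On a scale that corrects for transcript length (FPKM, deposited by the authors) the genes could be ordered within a group. In droughted WT plants AT1G34060 averaged 60.3 ± 9.15 FPKM, AT5G25240 48.9 ± 0.72 FPKM, OPR2 20.1 ± 4.38 FPKM and NLP9 3.13 ± 0.35 FPKM (SD, n = 2 each). In watered WT plants the order differed: AT5G25240 led with 16.8 ± 2.55 FPKM, followed by OPR2 with 5.79 ± 1.01 FPKM and AT1G34060 with 4.58 ± 0.37 FPKM. OPR2 and AT1G34060 stood close together in watered WT plants, with 5.07 FPKM in the lower OPR2 library and 4.84 FPKM in the higher AT1G34060 library. NLP9 was lowest there too, at 0.6 ± 0.11 FPKM.

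Fitted with all genes in edgeR's quasi-likelihood model, the log2 drought response of NLP9 was 0.13 ± 0.21 in OE plants and 2.12 ± 0.24 in WT plants (± SE). That of AT1G34060 was 1.77 ± 0.17 in OE plants and 3.47 ± 0.18 in WT plants. AT5G25240 had −0.23 ± 0.14 in OE plants and 1.29 ± 0.15 in WT plants, and OPR2 had 0.06 ± 0.19 in OE plants and 1.55 ± 0.19 in WT plants. The difference of the responses, OE minus WT, on which the genes were chosen, was −1.99 ± 0.33 for NLP9, −1.70 ± 0.25 for AT1G34060, −1.52 ± 0.21 for AT5G25240 and −1.50 ± 0.27 for OPR2. Without the library with the VaWRKY15 label it was −1.89 for NLP9, −1.93 for AT1G34060, −1.58 for AT5G25240 and −1.78 for OPR2, and the OPR2 response in OE plants was −0.24. With libraries scaled by their totals alone, which moves the median of all genes to 0.37 in OE and 0.27 in WT plants and the difference to 0.10, the OE response of AT5G25240 was 0.12.

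The difference of responses combines a higher estimated level in OE plants with watering and a lower one under drought. With normal watering the log2 ratio of OE to WT plants was 1.46 ± 0.26 for NLP9, 1.09 ± 0.15 for AT5G25240, 0.82 ± 0.20 for AT1G34060 and 0.53 ± 0.20 for OPR2 (± SE). Under drought it was −0.54 ± 0.20 for NLP9, −0.43 ± 0.14 for AT5G25240, −0.88 ± 0.15 for AT1G34060 and −0.96 ± 0.18 for OPR2. By these estimates NLP9 and AT5G25240 stood further apart between the genotypes with watering, and OPR2 further apart under drought. In edgeR AT1G34060 and OPR2 did not pass an adjusted p under 0.05 with watering, nor did NLP9 and AT5G25240 under drought. The DESeq2 test, and edgeR without the filter on low counts, did call AT1G34060 with watering. Under drought OPR2 lost its call with library totals alone and with the replicate number as a block. With watering NLP9 lost its call when only the 4 libraries compared were fitted. These calls thus do not divide the 4 genes cleanly. All 4 genes were among the 12 called with a lower response in OE plants at an adjusted p under 0.05, which are 0.0623% of the genes tested. This restates how they were chosen. In the 8 fits that each leave out 1 library that call held for NLP9 in 3, for AT1G34060 in 5, for AT5G25240 in 7 and for OPR2 in 4, and without the second library of droughted OE plants it held for none of them, although the difference stayed below 0 in all these fits. Without the library with the VaWRKY15 label the NLP9 call was lost, at −1.89, while those of AT1G34060, AT5G25240 and OPR2 held. The OPR2 call was also lost with library totals alone, at −1.39, and with the replicate number as a block, at −1.51. By size the genes were in places 1, 3, 4 and 5 of the 12. GLN1;4, a cytosolic glutamine synthetase, was in place 2 at −1.73, and the next after OPR2 was BEE3, with −1.32. In each of the 12 genes the OE mean was above the WT mean with watering and below it under drought. The call favours this pattern, because the difference is the log2 ratio of OE to WT under drought minus that with watering. The share of all genes with this pattern was not counted. Just outside the call lay PKS2, with a difference of −0.93, and COR15A, with −1.98.

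**Figure D2:**
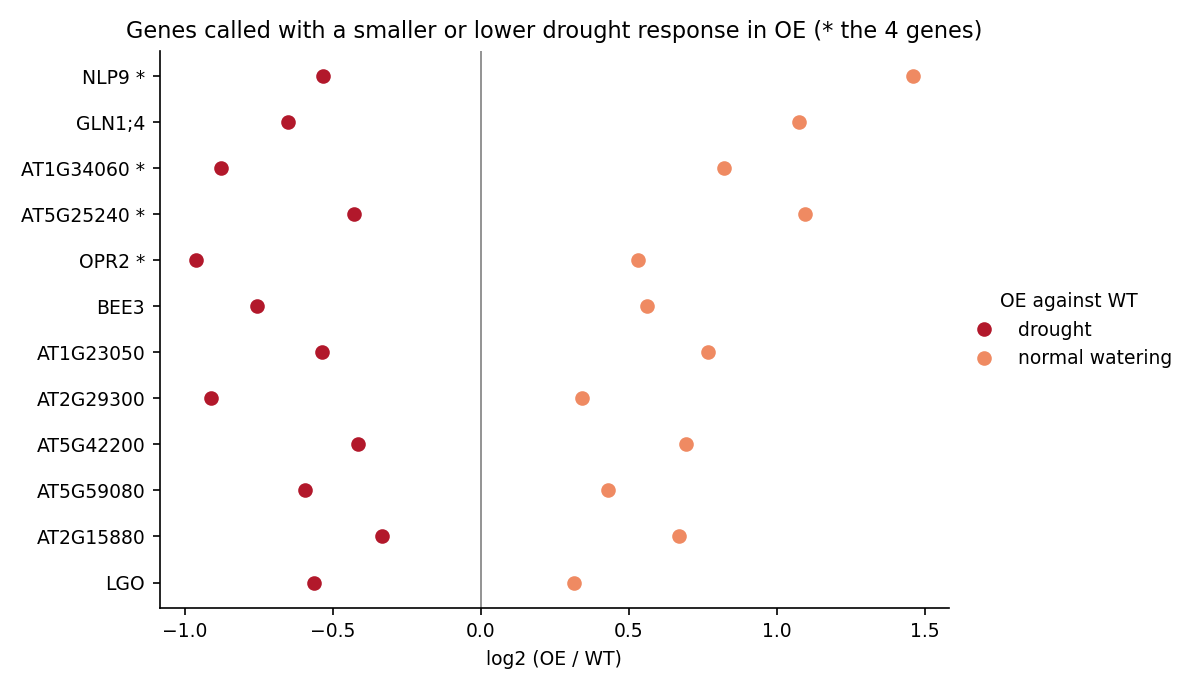
Log2 ratio of OE to WT plants (horizontal axis) under drought and with normal watering for the 12 genes called with a lower drought response in OE plants, ordered by the size of the difference. The 4 genes described here are starred, and all 12 lie below 0 under drought and above 0 with watering, a pattern that the call favours.

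The close relatives of these genes described next were not called in the difference between genotypes. NLP8, known in Arabidopsis for nitrate-promoted seed germination, is the closest relative of NLP9, with 80.3% identical aligned coding bases. It rose under drought in both genotypes, by 1.04 ± 0.15 on the log2 scale in OE plants (edgeR adjusted p = 0.000406) and by 1.53 ± 0.16 in WT plants (adjusted p = 2.47e-05). Its difference of responses was −0.49 ± 0.22 and did not pass (adjusted p = 0.382). The 2 coding sequences share no stretch as long as 50 bases, and 7 of the 8 NLP9 counts were whole numbers, so few reads were divided between these genes.

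AT1G34040, a gene with 86.1% identical aligned coding bases, is the closest relative of AT1G34060 and lies near it on chromosome 1. It was at 1.24 and 0.98 CPM in droughted OE plants and 0.61 and 0.10 CPM in watered OE plants. It was at 1.77 and 2.07 CPM in droughted WT plants and 0.98 and 0.70 CPM in watered WT plants. Its log2 drought response was 1.60 ± 0.62 in OE plants and 1.23 ± 0.48 in WT plants, and neither passed (adjusted p = 0.0909 and 0.112). AT1G34060 held between 89.2% and 99.1% of the counts of the pair, so a division of reads between these genes could move its values little.

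OPR2 and OPR1 are 91.7% identical over the aligned coding bases and share an unbroken run of 114 bases. The 194 coding bases around that run, bases 198 to 391 of OPR2 and 192 to 385 of OPR1, are shown because reads inside the run cannot be assigned to either gene. Capitals mark the 13 bases that differ.
OPR2: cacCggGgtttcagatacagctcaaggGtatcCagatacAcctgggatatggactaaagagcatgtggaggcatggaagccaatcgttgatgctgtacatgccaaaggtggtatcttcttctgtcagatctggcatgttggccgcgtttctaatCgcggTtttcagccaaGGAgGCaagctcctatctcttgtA
OPR1: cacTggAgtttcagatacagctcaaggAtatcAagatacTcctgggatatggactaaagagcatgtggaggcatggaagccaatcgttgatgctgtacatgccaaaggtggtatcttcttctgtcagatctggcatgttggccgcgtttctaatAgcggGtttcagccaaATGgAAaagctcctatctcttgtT
None of the 8 OPR2 counts was whole within 0.005, whereas its sum with OPR1 was whole within 0.02 in all 8 libraries, so the reads of these genes were divided between them in the deposited counts. OPR2 held 22.1% and 17.1% of the pair's counts in droughted OE plants and 16.8% and 14.3% in watered OE plants. It held 27.5% and 27.7% in droughted WT plants, against 13.8% and 14.1% in watered WT plants. This share, highest in droughted WT plants, rests on the same divided counts and is no separate check of them. OPR1 itself had 63.0 and 59.4 CPM in droughted OE plants and 68.6 and 90.5 CPM in watered OE plants. It had 68.2 and 85.6 CPM in droughted WT plants and 69.4 and 54.5 CPM in watered WT plants. The OPR1 response was −0.38 ± 0.16 in OE plants (adjusted p = 0.125) and 0.31 ± 0.16 in WT plants (adjusted p = 0.23), and its difference was −0.69 ± 0.22 (adjusted p = 0.232). OPR3 had responses of 0.20 ± 0.16 in OE plants and −0.47 ± 0.16 in WT plants, neither past the threshold in edgeR (adjusted p = 0.432 and 0.077). DESeq2 called 1 of the 5 other OPR genes in WT plants, and which one is not given here.

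**Figure D3:**
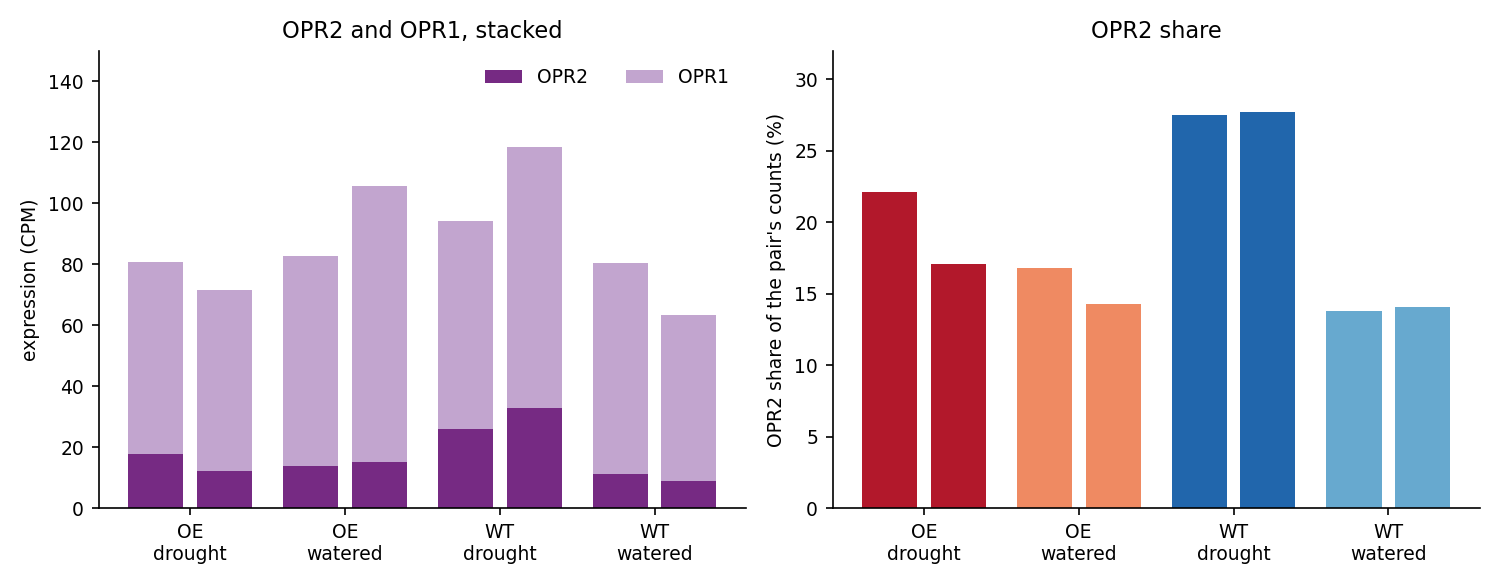
Left, OPR2 and OPR1 stacked, in CPM, in the 2 libraries of each group. Right, OPR2 as a percentage of the counts of the pair, which is 27.5% and 27.7% in droughted WT plants and between 13.8% and 22.1% in the other libraries.

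**Figure D4:**
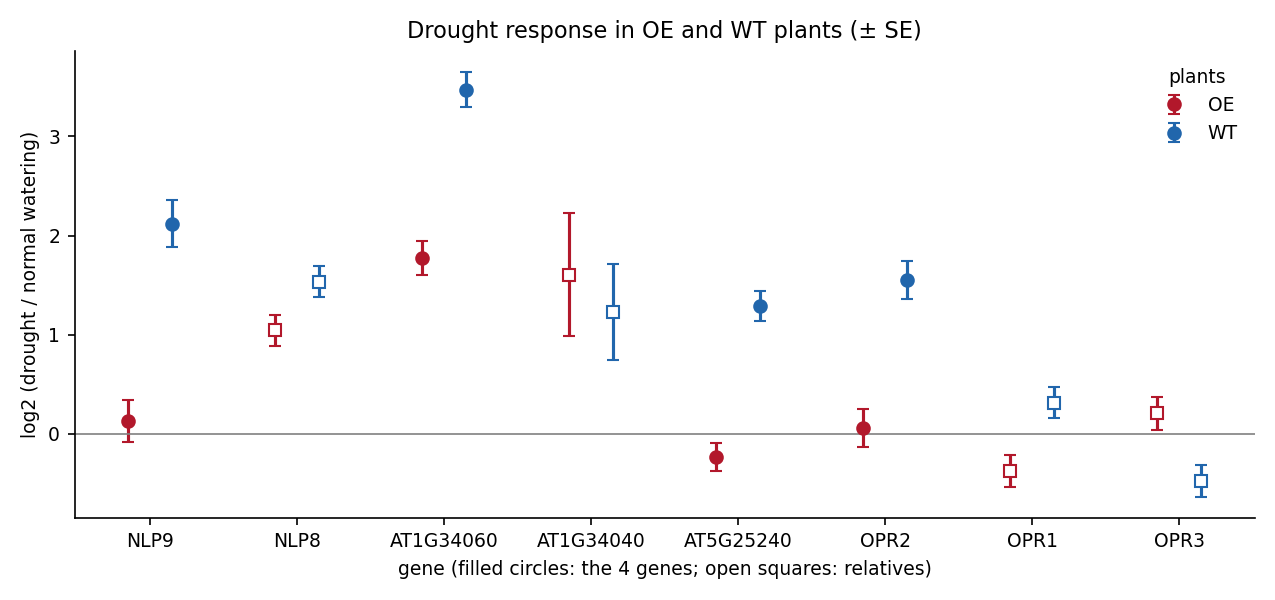
Log2 drought response (vertical axis, ± SE) in OE and WT plants for the 4 genes (filled circles) and their nearest relatives (open squares). The WT response lies above the OE response in each of the 4 genes, and NLP8 lies above 0 in both genotypes.

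Among the 8 other NLP genes, 2 rose and 1 fell under drought in OE plants, where 6.77% of all genes tested were called higher and 9.92% lower. In WT plants 4 rose and 1 fell, where 5.63% of all genes were called higher and 7.37% lower. NLP4 rose by 0.44 ± 0.13 in OE plants (edgeR adjusted p = 0.035) and by 0.43 ± 0.13 in WT plants (adjusted p = 0.0416), but was called in 4 and 3 of the 8 fits that leave out 1 library. NLP7 fell in both, by 0.55 ± 0.11 in OE plants (adjusted p = 0.00364) and 0.67 ± 0.11 in WT plants (adjusted p = 0.00119), and the OE call was lost without the first droughted OE library. NLP5, with a log2 response of 0.70 ± 0.14 (adjusted p = 0.0032), and NLP2, with 0.54 ± 0.13 (adjusted p = 0.013), rose in WT plants. The NLP2 call was lost when replicate 2 of either WT group was left out. None of the 8 was called in the difference of responses by edgeR or by DESeq2, 2 had an unadjusted p under 0.05 in edgeR, and in that comparison 0.0987% of all genes were called higher and 0.0623% lower. The median difference of the 8 was −0.21, beside −0.01 over all genes.

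Of the 20 tested genes that respond to nitrate in Arabidopsis, 12 fell under drought in OE plants, against 9.92% of all genes tested, and 11 fell in WT plants, against 7.37% of all genes. Their median log2 response was −1.32 in OE plants and −1.56 in WT plants, beside 0.02 for all genes in each. NIR1, the nitrite reductase, fell by 1.93 ± 0.13 in OE plants (adjusted p = 5.18e-06) and fell by 2.09 ± 0.14 in WT plants (adjusted p = 5.22e-07). CLCA, which carries nitrate into the vacuole, fell by 2.13 ± 0.17 in OE plants and by 2.88 ± 0.18 in WT plants (adjusted p = 1.85e-05 and 9.32e-07). AT1G68670 fell by 1.52 ± 0.13 in OE plants and 2.15 ± 0.14 in WT plants (adjusted p = 1.33e-05 and 5.22e-07). It was also the only gene of this list called between genotypes under drought, at 0.83 ± 0.15 higher in OE plants (adjusted p = 0.0247), where 0.161% of all genes were called higher and 0.135% lower. That call was lost when replicate 2 of either droughted group was left out. The nitrate transporter NPF6.3 fell in OE plants by 0.84 ± 0.12 (adjusted p = 0.000267) and had a response of −0.26 ± 0.12 in WT plants (adjusted p = 0.17), and this difference between genotypes did not pass (adjusted p = 0.157). None of the 20 was called in the difference of responses by edgeR or DESeq2, and 6 had an unadjusted p under 0.05 in edgeR. Their median difference was 0.43, beside −0.01 over all genes, with 18 genes above 0 and 2 below.

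**Figure D5:**
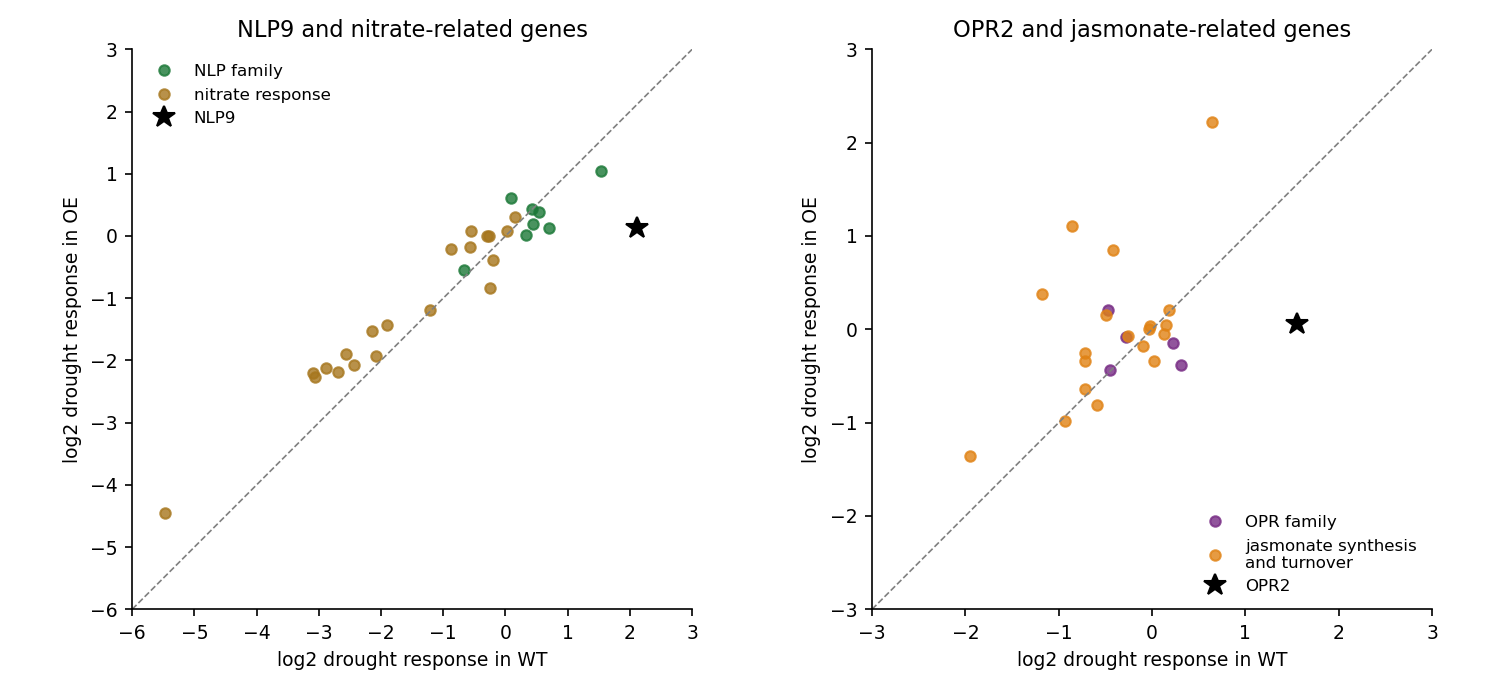
Log2 drought response in WT plants (horizontal axis) and OE plants (vertical axis) for the NLP family and nitrate response genes (left) and the OPR family and jasmonate genes (right), with the dashed line where both are equal. NLP9 and OPR2 (stars) lie below the line to the right, at WT responses of 2.12 and 1.55.

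Of the 19 jasmonate genes tested, 4 fell under drought in OE plants and 5 in WT plants, where 9.92% and 7.37% of all genes tested were called lower. LOX2, the chloroplast lipoxygenase, fell by 1.36 ± 0.19 in OE plants (edgeR adjusted p = 0.000294) and 1.95 ± 0.19 in WT plants (adjusted p = 2.02e-05). AOC2, an allene oxide cyclase, fell by 0.99 ± 0.17 and 0.93 ± 0.17 in OE and WT plants (adjusted p = 0.00157 and 0.00252). AOC1 and AOS fell in both genotypes as well, and OPCL1, which activates the precursor with coenzyme A, fell in WT plants by 0.72 ± 0.16 (adjusted p = 0.0124). AOS was called in 5 and 6, AOC1 in 5 (WT plants) and OPCL1 in 5 of the 8 fits that leave out 1 library. None of the 19 genes was called in the difference of responses by edgeR or DESeq2, and 1 had an unadjusted p under 0.05 in edgeR. Of the 5 other OPR genes none was called in that difference by edgeR or DESeq2, and 2 had an unadjusted p under 0.05. In the drought responses edgeR called none of the 5, with 1 at an unadjusted p under 0.05 in each genotype, while DESeq2 called 1 in WT plants.

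TAA1 and TAR2 are pyridoxal phosphate-dependent enzymes of auxin synthesis, and YUCCA enzymes act after them. Of the TAA1 and TAR list 3 genes were tested, and none was called in either drought response by edgeR or DESeq2. In edgeR 2 had an unadjusted p under 0.05 in OE plants and 1 in WT plants, and TAA1 had a response of 0.73 ± 0.24 in OE plants (adjusted p = 0.0515). Of the YUCCA genes 2 of 11 were tested. YUC2 rose in OE plants by 1.77 ± 0.53 (adjusted p = 0.0333), with means of 1.75 CPM in droughted and 0.50 CPM in watered OE plants. DESeq2 called no YUCCA gene there, and in edgeR YUC2 lost the call without either droughted OE library or without the second watered one.

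Of 11 drought and abscisic acid markers tested, 4 rose under drought in OE plants and 4 in WT plants, where 6.77% and 5.63% of all genes tested were called higher. GOLS2, a galactinol synthase, rose by 1.58 ± 0.13 in OE plants (edgeR adjusted p = 1.19e-05) and by 1.88 ± 0.14 in WT plants (adjusted p = 9.32e-07), and HB12 rose in both as well. HB7 and LTI30 rose in OE plants and RD29A and KIN2 in WT plants. Of the 11, 4 in OE plants and 3 in WT plants had estimates below 0, and none of these was called. The lowest was RD26, at −0.625 ± 0.314 in OE plants and −0.66 ± 0.315 in WT plants. The differences of responses of HB7, 0.52 ± 0.32, and LTI30, 0.245 ± 0.389, did not pass in edgeR (adjusted p = 0.552 and 0.864). RD29A, a marker of cold and water stress, was at 225 CPM in droughted OE and 255 CPM in watered OE plants, and at 185 CPM in droughted WT and 118 CPM in watered WT plants, as group means. With watering RD29A was higher in OE than in WT plants by 1.12 ± 0.13 (adjusted p = 0.00101), and KIN2, a cold- and drought-induced gene, by 1.12 ± 0.18 (adjusted p = 0.0169). In that comparison 0.296% of all genes were called higher and 0.0935% lower. RD29A and KIN2 had differences of responses of −0.83 ± 0.18 and −1.05 ± 0.25 that did not pass in edgeR (adjusted p = 0.0703 and 0.0924), while DESeq2 called both.

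Over the 8 libraries, the gene with the pattern most like NLP9 was AT4G40030, a histone H3.3 gene, with a Pearson correlation of 0.979 of log2(CPM + 1), followed by AT3G55760 at 0.977 and TCP14, a TCP transcription factor, at 0.975. The libraries share their groups and scaling, so this is a description of 8 points. A correlation also takes no account of the size of a change. AT4G40030 had a log2 drought response of 0.35 ± 0.11 in WT plants. Its difference of responses was −0.30 ± 0.155 and did not pass (edgeR adjusted p = 0.454). For AT5G25240 the nearest was AT2G35470 at 0.992, followed by AT5G42200 at 0.978 and UGT85A5, a glucosyltransferase, at 0.977. For OPR2 the nearest was CKX6, a cytokinin oxidase, at 0.989, then AT1G15410 at 0.987 and JAC1 at 0.985. CKX6 had a log2 response of 0.415 ± 0.132 in WT plants and a difference of −0.456 ± 0.186 that did not pass (edgeR adjusted p = 0.332). For AT1G34060 the nearest were AT5G59050 at 0.994, GLN1;4 at 0.993 and PPa5, an inorganic pyrophosphatase, at 0.993. Of these nearest genes only GLN1;4 and AT5G42200 were called in the difference of responses (edgeR adjusted p = 0.00866 and 0.0286). GLN1;4 had 137 and 101 CPM in droughted OE plants and 26.7 and 28.8 CPM in watered OE plants. It had 186 and 187 CPM in droughted WT plants and 14.7 and 11.5 CPM in watered WT plants. Among the 4 genes the correlations were 0.945 between NLP9 and AT5G25240, 0.868 between AT1G34060 and OPR2, and 0.721 at the lowest, between AT1G34060 and AT5G25240. Of 15255 genes compared, 19 were closer to NLP9 than AT5G25240 was and 259 were closer than AT1G34060 was. For AT1G34060, 719 genes were closer than OPR2 was and 1965 were closer than AT5G25240 was.

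Of the genes beside them on the chromosome, 2 listed genes on each side, 13 were tested. Under drought 1 fell in OE plants and 2 fell in WT plants, where 9.92% and 7.37% of all genes tested were called lower. Next to NLP9, AT3G59570 fell under drought in WT plants by 0.53 (edgeR adjusted p = 0.0308, called in 4 of the 8 fits that leave out 1 library). FLOT1, a flotillin beside AT5G25240, fell in WT plants by 1.13 (adjusted p = 0.00949) and had a response of 0.08 in OE plants. AT1G76670, on the far side of OPR1, fell in OE plants by 0.37 (adjusted p = 0.0331, 5 of the 8 fits). None of the 13 neighbours tested was called by edgeR in the difference of responses, where 4 had an unadjusted p under 0.05 and DESeq2 called 1, FLOT1.

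Each library held between 9591274 and 11378571 expected counts, and 3 counts correspond to 0.242 to 0.313 CPM. Nothing in the labels says that the 2 libraries of a group came from separate plants or cultures, so p-values measure the spread between these samples, which may be technical. Flower markers were summed at 60.0 to 81.5 CPM in droughted OE plants, 6.02 to 22.6 CPM in watered OE plants, 35.9 to 40.8 CPM in droughted WT plants and 21.0 to 27.1 CPM in watered WT plants. Of the 8, 6 rose under drought in OE plants, against 6.77% of all genes. None was called in WT plants by edgeR or DESeq2, with 2 at an unadjusted p under 0.05 in edgeR, and none in the difference of responses, with 6 at an unadjusted p under 0.05. Rosette markers were summed at 22650 to 25420 CPM in droughted OE plants, 53850 to 67490 CPM in watered OE plants, 17680 to 24400 CPM in droughted WT plants and 43260 to 54900 CPM in watered WT plants, and 4 of 4 fell in OE and 3 of 4 in WT plants. Root markers were summed at 10.4 to 17.1 CPM in droughted OE plants, 36.4 to 38.2 CPM in watered OE plants, 11.3 to 23.2 CPM in droughted WT plants and 30.7 to 48.9 CPM in watered WT plants, nearly all from PYK10. The part of these marker shifts in the values of the 4 genes was not tested.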

How the data were processed

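RNA of 8 libraries (4 groups of 2, grouped by the sample titles) was sequenced by the submitters. Per the file headers, the authors deposited an expected count per gene, not normalized, and an FPKM value per gene in 1 table per library. The submitters' processing notes name HISAT2 2.0.5, STAR, edgeR, featureCounts and the TAIR10 build, with no roles. Use of strand in the counting is not given in the sources used here. Each table lists only genes above 0, and a missing gene was given a count of 0. All 4 genes were listed in all 8 tables.

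Expected counts were rounded and fitted in edgeR 4.0.16 (R 4.3.3) with TMM scaling, filterByExpr at a minimum count of 10 and a robust quasi-likelihood model with 1 mean per group over all 8 libraries. Drought was compared with normal watering in each genotype, OE with WT under each watering, and the drought responses with each other. Tests were two-sided, with Benjamini-Hochberg adjustment of p-values over 19259 genes, with calls at an adjusted p under 0.05. A standard error is the log2 fold change divided by the square root of its F statistic. CPM uses TMM-scaled library sizes. The fits were tested on simulated data. Alternatives were DESeq2 1.42.0 (its size factors and its test), library totals alone, no filter, a replicate block, only the 4 libraries compared, leaving out each library, and log2(FPKM + 0.1).

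The 4 genes and the 10 gene lists were chosen with earlier results of these data known, so list counts are descriptions beside the share of all genes called. Named genes were the 4 genes, the closest relatives by family, up to 4 called genes per list and comparison with the smallest adjusted p, the 2 listed genes on each side on the chromosome, the 3 genes of at least 5 CPM most correlated with each, and the genes called with a lower response in OE plants. PKS2 and COR15A were named after their values were seen. Symbols, positions and sequences came from RefSeq TAIR10.1 by locus name. Libraries of 1 group differed beyond counting error (chi-square divided by its degrees of freedom, 5.69 to 9.9). The depth, 9591274 to 11378571 expected counts per library, limits what can be said of genes under a few CPM.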

Additional observations from a re-analysis of the deposited data

Results flagged for a closer look

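The 12 genes called with a lower response in OE plants are listed here (edgeR test of the difference, adjusted p under 0.05). NLP9 had a log2 difference, OE minus WT, of −1.994, AT1G34060 of −1.699, AT5G25240 of −1.522 and OPR2 of −1.496. These 4 were chosen by that difference, so their call carries no test of it. GLN1;4 had −1.729, with an adjusted p of 0.00866, and lost the call without the second library of droughted WT plants (adjusted p = 0.0554). AT5G42200, among the genes most like AT5G25240, had −1.107 with an adjusted p of 0.0286, and the call held in 3 of the 8 fits that leave out 1 library, where its highest adjusted p was 0.132. The other 6 had −1.318 (BEE3), −1.303 (AT1G23050), −1.251 (AT2G29300), −1.021 (AT5G59080), −1.001 (AT2G15880) and −0.878 (LGO). Groups of 2 libraries are too small to look for a single library far from the others.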

How the results depend on the processing

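Under the alternatives tried no difference of drought responses of the 4 genes changed sign. Leaving out 1 library at a time moved it between −2.25 and −1.78 for NLP9, −1.93 and −1.48 for AT1G34060, −1.71 and −1.36 for AT5G25240 and −1.78 and −1.24 for OPR2, and with the deposited FPKM values it was −1.77 for NLP9. The call of OPR2 was lost with library totals alone and with the replicate block, and all 4 calls were lost without the second droughted OE library. Without the first droughted OE library the call of NLP9 was lost. The numbers of genes called moved more. With library totals alone 8196 genes were called for drought in OE plants and 4791 in WT plants, against 3214 and 2505, because the median of all genes then lies above 0, and 67 were called in the difference of responses, against 31. Without a filter the counts were 202 in the difference, 108 for OE against WT under drought and 166 with watering, where the counts reported were 31, 57 and 75. The DESeq2 test called 146, 89 and 171, and fitting only the 4 libraries compared gave 233 under drought and 21 with watering. For the alternatives without a filter and with DESeq2 the cause was not tested. Leaving out 1 library gave 1456 to 3562 genes for drought in OE plants, 1118 to 2578 in WT plants, 2 to 326 in the difference, 10 to 130 for OE against WT under drought and 16 to 438 with watering. The lowest count in the difference came without the second droughted OE library and the highest without the second watered WT library. With a single library left in a group, that library was assumed to vary like the others. With the replicate block the counts were 3047, 2397, 44, 63 and 75 in the same order. The groups share only a replicate number: deviations of same-numbered libraries correlated between −0.113 and 0.104 across pairs of groups. No call of the list genes reported, 65 in all, changed sign with library totals alone or DESeq2 size factors.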
